A study of Mus musculus with 6 samples.

Results

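The genes of vascular endothelial growth factor (VEGF) and angiopoietin-Tie signalling were followed in RNA sequencing of glomeruli, the capillary tufts that filter blood in the kidney. The 10 genes were taken by name: the ligand genes Vegfa, Vegfb, Pgf, Angpt1 and Angpt2, and the receptor genes Kdr, Flt1, Flt4, Tek and Tie1. All 10 were found among the 57132 gene rows of the count table, and all 10 passed the filter on low counts that left 19927 genes tested. The mice carried floxed Setdb2 alleles in every group, and all samples were labelled DKD, for diabetic kidney disease. A group of 3 samples lacked Cre recombinase (Cre-/Setdb2fl/fl, here Cre_negative), and a group of 3 carried it (Cre+/Setdb2fl/fl, here Cre_positive). The comparison was made to study what SETDB2 of podocytes does in this disease. The sources used here do not give the promoter that drives Cre, the diabetes model, the age of the mice or whether each sample was 1 mouse. P-values therefore measure only how far these libraries vary, which may be technical in part.

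Podocytes, the epithelial cells on the outer face of the glomerular capillaries, secrete VEGF-A, which crosses the basement membrane and binds receptor tyrosine kinases on the endothelial cells inside. VEGF-A signals through KDR (VEGF receptor 2), while FLT1 (VEGF receptor 1) binds it tightly, signals weakly and also exists as a soluble decoy. Angiopoietin 1 activates the endothelial receptor TEK (also called TIE2) and stabilises vessels, angiopoietin 2 acts against it in many settings, and TIE1 modulates TEK.

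Libraries held 53571438 to 58807042 counts. Setdb2, the targeted gene, had 591, 492 and 370 counts in Cre_negative libraries 1, 2 and 3 and 427, 444 and 391 in the Cre_positive ones, so its total count does not check the genotype labels. Cre_positive library 2 stood apart in Xist, with 24 counts against 36474 to 47632 in the other libraries, and each of the 10 genes is also given without it. What set this library apart was not tested, and the marker sums below include it. Tubule genes were abundant in all isolates: the sodium-phosphate cotransporter gene Slc34a1 had 2738 to 4666 CPM (counts-per-million), against 45.4 to 67.0 CPM for the podocyte gene Nphs1 and 69.9 to 113.8 CPM for the endothelial gene Pecam1.

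Ligand and receptor genes were mostly higher in Cre_positive glomeruli, by modest amounts. In edgeR's quasi-likelihood test with Benjamini-Hochberg adjustment over all genes, Vegfa, Vegfb, Angpt1, Kdr, Flt1 and Tie1 rose, between 1.30-fold and 1.88-fold. Of all genes tested, 3.73% passed as higher in Cre_positive. Tek, Flt4, Angpt2 and Pgf did not pass. The CPM values of the genotypes did not overlap for 7 of the 10 genes, the 6 that rose and Tek, beside 15.2% of all genes that were higher without overlap. The median log2 fold change was 0.50 over the 10 genes and -0.00089 over all genes tested. The number that passed fell to 3 (Kdr, Flt1 and Tie1) without Cre_positive library 1, to 3 (Kdr, Angpt1 and Tie1) without library 2 and to 2 (Kdr and Tie1) without library 3. In bulk samples, more cells of a type and more RNA per cell cannot be told apart.

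**Figure D1:**
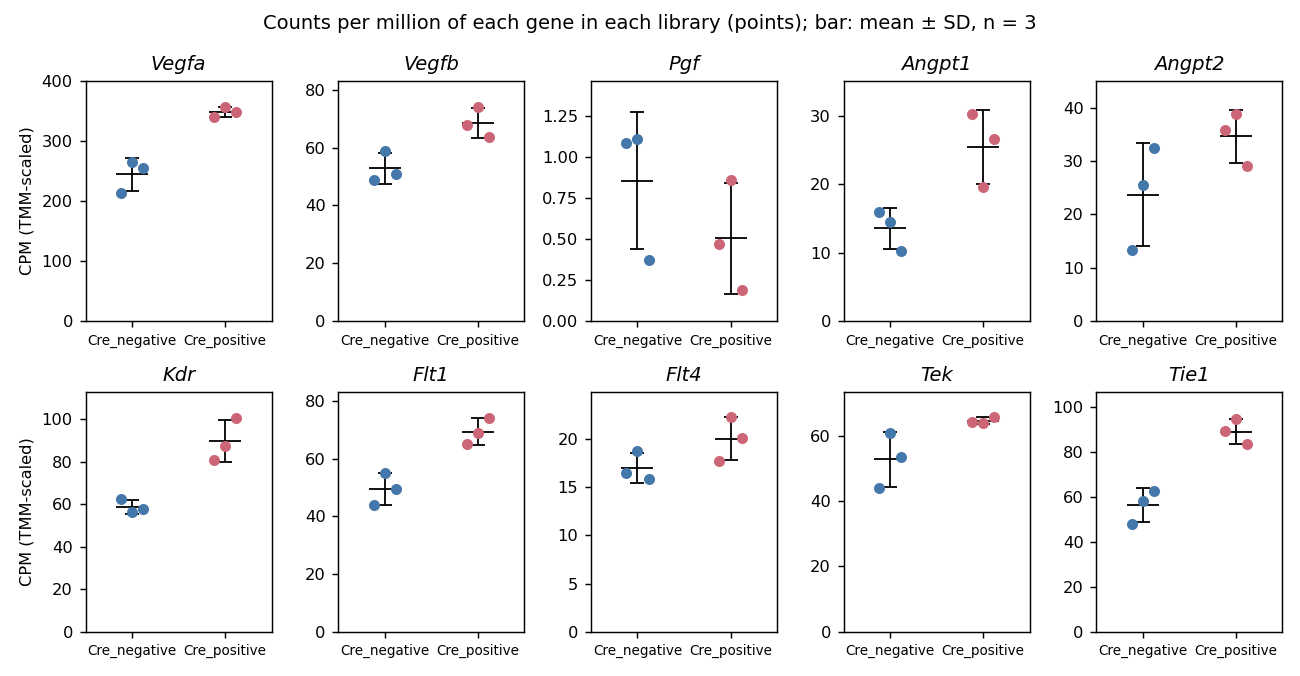
Counts-per-million (CPM) (TMM-scaled, linear axis from 0) of each of the 10 genes in the 3 Cre_negative (blue) and 3 Cre_positive (red) libraries; bars are mean ± SD. The groups are apart for Vegfa, Vegfb, Angpt1, Kdr, Flt1, Tek and Tie1 and overlap for Pgf, Angpt2 and Flt4.

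Levels can be compared between genes only per length, here as CPM per kilobase of annotated exon. On that scale Vegfa was highest in Cre_negative libraries, at 57.1 ± 6.39 CPM per kilobase (SD, n = 3). Vegfb followed at 32.9 ± 3.28, below Vegfa in every Cre_negative library. Tie1 stood at 11.4 ± 1.54 and Tek at 11.2 ± 1.78, and the ranges of these neighbours overlapped. Kdr had 6.51 ± 0.358, Angpt2 6.43 ± 2.62 and Flt1 3.67 ± 0.401 CPM per kilobase. The ranges of Kdr and Angpt2 overlapped, as did those of Angpt2 and Flt1. Angpt1 at 2.60 ± 0.569 and Flt4 at 2.07 ± 0.185 overlapped as well. Pgf was lowest, at 0.295 ± 0.144 CPM per kilobase. The exon lengths sum all annotated isoforms, so a gene with long minor isoforms, such as Flt1 with 13504 exon bases, can be placed lower than its main transcript would be.

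**Figure D2:**
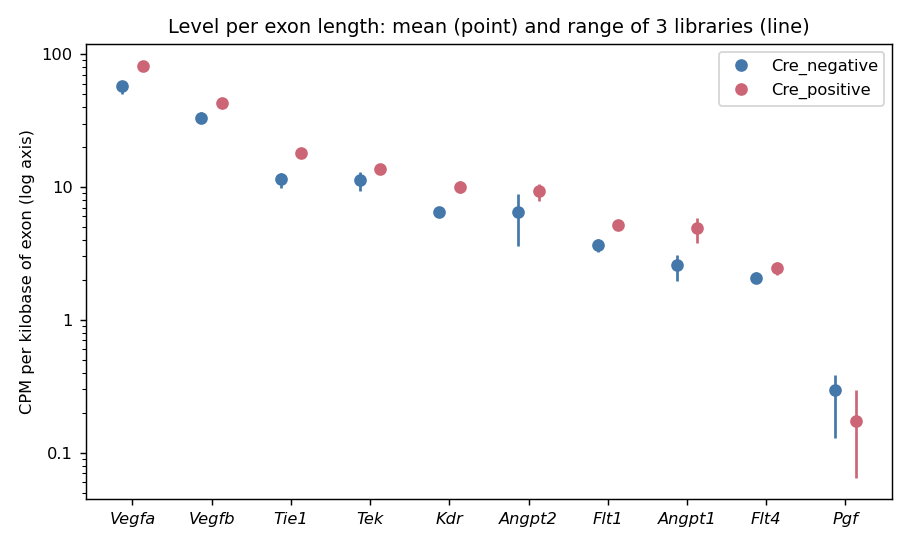
CPM per kilobase of exon (log axis) of the 10 genes, ordered by their Cre_negative mean; points are means and lines the range of the 3 libraries of each genotype. Vegfa (57.1 in Cre_negative) lies far above Pgf (0.295), with the receptors between 2.07 and 11.4.

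Among the VEGF ligands, Vegfa and Vegfb rose and Pgf did not pass. Vegfa (ENSMUSG00000023951), the main VEGF of podocytes and also made by tubule cells, had 214, 265 and 256 CPM in Cre_negative libraries 1, 2 and 3. In the Cre_positive libraries it had 341, 357 and 348 CPM. The Cre_positive libraries were close to each other and all above the highest Cre_negative one. The means were 245 ± 27.4 and 349 ± 8.25 CPM (SD, n = 3), a 1.42-fold rise. On the log2 scale it was 0.51 (SE 0.0928, 95% confidence interval 0.30 to 0.72, edgeR adjusted p = 0.0146). This call was lost without any 1 of the Cre_positive libraries, with an edgeR adjusted p of 0.0503 without library 1, 0.0670 without library 2 and 0.0707 without library 3. The log2 fold change in these fits was 0.53, 0.49 and 0.51.

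Vegfb (ENSMUSG00000024962) encodes a ligand of FLT1 linked to fatty acid uptake. It had 48.7, 58.7 and 51.0 CPM in Cre_negative and 67.7, 74.1 and 63.8 CPM in Cre_positive libraries. The groups did not overlap, but the gap between them was narrower than the range within each. Its log2 fold change was 0.38 (SE 0.0933, 95% confidence interval 0.16 to 0.59, edgeR adjusted p = 0.0447), the smallest of the rises. The call was lost in 7 of 14 other settings: without Cre_negative library 1 (0.104) or 3 (0.0814), without Cre_positive library 1 (0.117), 2 (0.158) or 3 (0.0915), with limma voom (0.0626) and with robust=FALSE (0.0521).

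Pgf (ENSMUSG00000004791) encodes placental growth factor, another FLT1 ligand. It had 66, 62 and 21 counts in Cre_negative libraries and 25, 49 and 10 in Cre_positive ones, 1.11 CPM at most. Both groups held high and low libraries. Its log2 fold change was -0.76 (SE 0.619, edgeR adjusted p = 0.521), with a 95% confidence interval from 0.223 to 1.57 times the Cre_negative level. It moved to -1.38 without Cre_positive library 2 (adjusted p = 0.333) and to -0.36 without Cre_positive library 3 (adjusted p = 0.816).

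The VEGF receptor genes Kdr and Flt1 rose, and Flt4 did not pass. Kdr (ENSMUSG00000062960) had 62.4, 56.2 and 57.8 CPM in Cre_negative libraries, a narrow range, and 81.0, 87.6 and 100.5 CPM in Cre_positive ones. Every Cre_positive library lay well above the Cre_negative range. The log2 fold change was 0.61 (SE 0.0916, 95% confidence interval 0.40 to 0.82, edgeR adjusted p = 0.00661), and the call held in all 14 other settings, with an adjusted p of at most 0.0314 (0.0296 without Cre_positive library 2).

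Flt1 (ENSMUSG00000029648) had 44.1, 54.9 and 49.5 CPM in Cre_negative and 65.0, 69.1 and 74.2 CPM in Cre_positive libraries. The genotypes did not overlap. Its log2 fold change was 0.49 (SE 0.0951, 95% confidence interval 0.27 to 0.70, edgeR adjusted p = 0.0187). The call was lost without Cre_positive library 2 (adjusted p = 0.0698) or 3 (adjusted p = 0.0914). Gene counts do not separate membrane-bound from soluble Flt1 transcripts.

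Flt4 (ENSMUSG00000020357) encodes VEGF receptor 3, the receptor of VEGF-C and VEGF-D on lymphatic and some fenestrated endothelium. It had 16.4, 18.7 and 15.9 CPM in Cre_negative libraries and 17.8, 22.3 and 20.1 CPM in Cre_positive ones. Cre_positive library 1 lay inside the Cre_negative range, so the groups overlapped. The log2 fold change was 0.24 (SE 0.119, 95% confidence interval -0.03 to 0.51, edgeR adjusted p = 0.271, and 0.586 without Cre_positive library 2). The 5 lymphatic markers did not pass, with unadjusted p of 0.167 or more in edgeR. Their summed level was 35.1 to 41.4 CPM in Cre_negative and 36.1 to 38.9 CPM in Cre_positive libraries. Prox1 made the largest part of this sum, with means of 20.3 and 18.8 CPM, and Lyve1, a defining lymphatic gene, had at most 0.477 CPM. Bulk libraries do not show which cells the RNA of these markers came from, so the sum is not a measure of lymphatic endothelium.

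Of the angiopoietins, Angpt1 rose and Angpt2 did not pass. Angpt1 (ENSMUSG00000022309) is made by podocytes and by mural cells around vessels. It had 15.9, 14.5 and 10.2 CPM in Cre_negative libraries and 30.2, 19.6 and 26.5 CPM in Cre_positive ones. The Cre_positive values were uneven, with library 2 the lowest, but all lay above the Cre_negative ones. The 1.88-fold rise, 0.91 on the log2 scale (SE 0.204, 95% confidence interval 0.44 to 1.38, edgeR adjusted p = 0.0338), was the largest among the 10 genes. The call was lost without Cre_negative library 2 (adjusted p = 0.0836) and without Cre_positive library 1 (0.103) or 3 (0.121); it held without Cre_positive library 2 (0.0327). An antisense gene, Gm17473, shares 737 exon bases (14.2%) with Angpt1, and the strand setting of the counting is not given, but it had only 3 to 18 counts, against 574 to 1612 for Angpt1.

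Angpt2 (ENSMUSG00000031465) is stored in and released from endothelial cells. It had 13.3, 25.4 and 32.4 CPM in Cre_negative and 35.9, 38.9 and 29.1 CPM in Cre_positive libraries. Cre_negative library 1 was far below all others, and Cre_positive library 3 lay below Cre_negative library 3. The log2 fold change was 0.55 (SE 0.316, 95% confidence interval -0.22 to 1.31) and did not pass (edgeR adjusted p = 0.367, and 0.584 without Cre_positive library 2). It was 0.26 without Cre_negative library 1 and 0.84 without Cre_negative library 3. Angpt2 lies within Mcph1 on the opposite strand, without shared exon bases.

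Of the Tie receptors, Tie1 rose and Tek did not pass. Tie1 (ENSMUSG00000033191) had 47.9, 58.1 and 62.7 CPM in Cre_negative and 89.3, 94.7 and 83.4 CPM in Cre_positive libraries. The lowest Cre_positive library stood well above the highest Cre_negative one. The log2 fold change was 0.66 (SE 0.104, 95% confidence interval 0.43 to 0.90, edgeR adjusted p = 0.00802), and the call held in all 14 other settings, with an adjusted p of at most 0.0419, the value without Cre_positive library 2.

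Tek (ENSMUSG00000006386) had 44.2, 60.9 and 53.5 CPM in Cre_negative and 64.2, 63.8 and 65.7 CPM in Cre_positive libraries. The Cre_positive values were nearly equal and all above the Cre_negative ones, the nearest of which was Cre_negative library 2. The log2 fold change was 0.29 (SE 0.110, 95% confidence interval 0.04 to 0.54), and the edgeR adjusted p of 0.153 did not pass; over 14 other settings it ranged from 0.0582 to 0.344 (0.287 without Cre_positive library 2). The fold change itself was 0.18 without Cre_negative library 1.

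**Figure D3:**
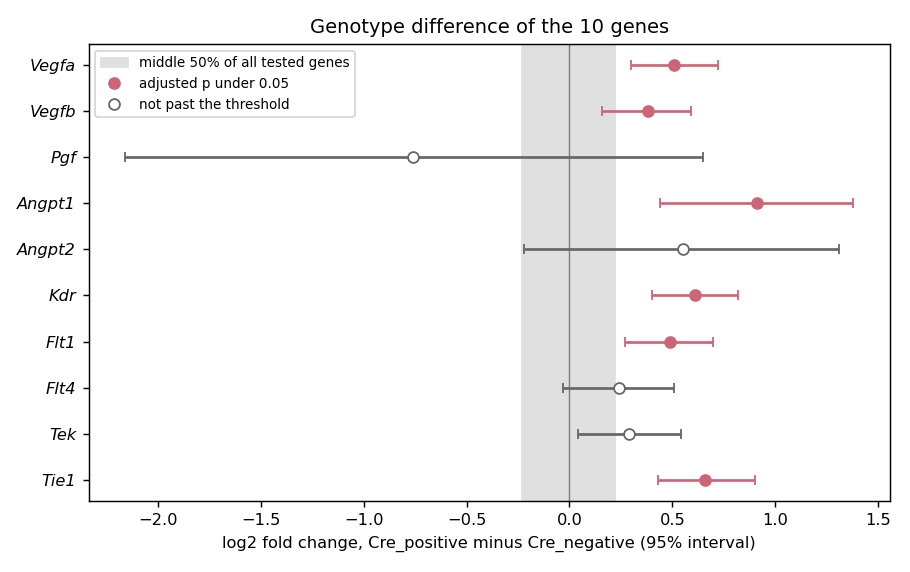
Log2 fold change (Cre_positive minus Cre_negative) of the 10 genes with 95% confidence intervals; filled red points passed an adjusted p of 0.05, and the grey band spans -0.23 to 0.22, the middle 50% of all tested genes. The rises lie between 0.38 (Vegfb) and 0.91 (Angpt1), and the interval of Pgf is the widest.

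The start regions of 4 receptor genes are shown: Kdr, Flt1 and Tie1, which rose, and Tek, which did not pass. ETS factors, which bind GGAA, are known drivers of endothelial receptor genes, and the human FLT1 promoter is known for a cyclic AMP response element beside ETS sites. RefSeq windows (build GRCm38.p6; the submitters' notes name GRCm39 for the counts) run from 250 bases before to 50 bases after a gene's start and were matched for 8 of the 10 genes, all but Angpt1 and Angpt2. The 4 windows below are written 5′ to 3′ on the gene's strand, with each GGAA or TTCC and the element TGACGTCA in capitals. They lie at chr5:75978406-75978705 (minus strand) for Kdr, chr5:147725962-147726261 (minus) for Flt1, chr4:118489800-118490099 (minus) for Tie1 and chr4:94739039-94739338 (plus) for Tek.
Kdr: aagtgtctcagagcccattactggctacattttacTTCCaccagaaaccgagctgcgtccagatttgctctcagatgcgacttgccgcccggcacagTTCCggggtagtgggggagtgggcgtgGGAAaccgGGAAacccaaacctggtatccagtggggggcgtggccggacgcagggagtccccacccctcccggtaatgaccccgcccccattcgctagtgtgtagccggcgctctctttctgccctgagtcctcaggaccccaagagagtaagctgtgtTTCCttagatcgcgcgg
Flt1: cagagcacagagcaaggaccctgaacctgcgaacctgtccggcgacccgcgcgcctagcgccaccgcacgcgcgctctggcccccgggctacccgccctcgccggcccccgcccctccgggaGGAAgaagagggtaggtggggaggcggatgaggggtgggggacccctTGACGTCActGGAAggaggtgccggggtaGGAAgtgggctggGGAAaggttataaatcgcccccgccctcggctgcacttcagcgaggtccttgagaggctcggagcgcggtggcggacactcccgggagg
Tie1: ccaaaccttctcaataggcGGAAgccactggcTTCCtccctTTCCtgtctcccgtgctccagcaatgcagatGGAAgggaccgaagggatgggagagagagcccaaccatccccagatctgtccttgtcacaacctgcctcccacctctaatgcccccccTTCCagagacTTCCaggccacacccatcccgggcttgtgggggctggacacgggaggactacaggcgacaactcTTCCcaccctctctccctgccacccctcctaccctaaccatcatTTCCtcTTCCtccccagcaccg
Tek: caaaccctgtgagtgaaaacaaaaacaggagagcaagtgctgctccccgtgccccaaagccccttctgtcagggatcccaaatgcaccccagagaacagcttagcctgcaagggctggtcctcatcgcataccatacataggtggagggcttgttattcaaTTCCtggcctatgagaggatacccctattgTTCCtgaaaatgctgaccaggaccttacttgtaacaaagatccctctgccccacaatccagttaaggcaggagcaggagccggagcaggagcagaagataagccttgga

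Counting both strands, GGAA occurred 5 times in the window of Kdr, 4 times in that of Flt1, 9 times in that of Tie1 and 2 times in that of Tek. Of the genes not shown, Flt4, which did not pass, had 2 matches, and so did Vegfb, which rose. The windows of Vegfa had 6 and 3 matches and those of Pgf 2 and 1. GGAA occurred at least once in 96.0% of the 32544 distinct RefSeq windows of this length, at least 2 times in 84.6%, at least 4 times in 46.3%, at least 5 times in 28.6% and at least 9 times in 1.59%. The palindrome TGACGTCA was found in the Flt1 window, and in 1.80% of all windows; it does not overlap a GGAA match there. The core of hypoxia response elements (ACGTG or GCGTG, both strands) occurred 2 times in the window of Kdr and 1 time in that of Flt1, with 44.0% of all windows holding it. Vegfa has 2 windows: the one at chr17:46032328-46032627 (minus strand) held 0 of these cores and the one at chr17:46025114-46025413 (minus strand) held 2. The latter window lies downstream of the former along the gene, so its cores are not upstream of the first start. Cores farther from a start than the windows reach were not searched. These matches describe the windows and do not show binding, and their part in the genotype differences was not tested.

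Endothelial genes outside the 10 also rose. Of 12 endothelial markers, 8 rose (3.73% of all genes passed as higher) and 4 did not pass, with a median log2 fold change of 0.55. Among them were Cdh5, the cadherin of endothelial junctions, at 0.69, and Pecam1 at 0.59 (edgeR adjusted p = 0.00158 and 0.00214). Their summed level was 559 to 638 CPM in Cre_negative and 833 to 946 CPM in Cre_positive libraries. Each receptor was therefore also read against the mean log2 CPM of these 12 markers in the same library. With 3 against 3 libraries the smallest p of the exact permutation test is 0.1, so none of these values can pass 0.05.

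Relative to the endothelial markers, Flt4 and Tek stood lower in each Cre_positive library than in any Cre_negative one. Flt4 minus the marker mean was -1.06, -1.05 and -1.27 on the log2 scale in Cre_negative and -1.51, -1.33 and -1.36 in Cre_positive libraries, a difference of -0.27 (two-sided exact permutation p = 0.1, 0.367 after Benjamini-Hochberg adjustment over 11 values). Tek minus the marker mean was 0.36, 0.64 and 0.48 in Cre_negative and 0.34, 0.19 and 0.34 in Cre_positive libraries, a difference of -0.21 (exact p = 0.1, adjusted 0.367). With the markers' median in place of their mean, the Tek values gave an exact p of 0.3. The differences for Kdr (0.10), Flt1 (-0.02), Tie1 (0.16) and Angpt2 (0.12) came with overlapping libraries and exact permutation p of 0.5, 0.8, 0.2 and 0.8.

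Within-library ratios, which do not depend on scaling between libraries, separated the genotypes for Tek to Tie1 and Flt4 to Kdr. They reuse the Tek and Flt4 values above, set against receptor genes that rose, so they are not separate evidence. The log2 ratio of Tek to Tie1 counts was -0.12, 0.07 and -0.23 in Cre_negative and -0.48, -0.57 and -0.34 in Cre_positive libraries, 0.774 times as high (two-sided exact permutation p = 0.1, 0.35 after adjustment over 7 ratios). The log2 ratio of Flt4 to Kdr was -1.92, -1.58 and -1.86 in Cre_negative and -2.19, -1.97 and -2.32 in Cre_positive libraries, also 0.774 times as high (exact p = 0.1, adjusted 0.35). Neither ratio overlapped between genotypes. The log2 ratio of Vegfa to its decoy receptor Flt1 stood at 2.30 ± 0.06 in Cre_negative and 2.33 ± 0.09 in Cre_positive libraries (SD, n = 3; exact permutation p = 0.8). That of Angpt2 to Angpt1 ranged from -0.25 to 1.67 in Cre_negative and from 0.14 to 0.99 in Cre_positive libraries (exact p = 0.7), and its difference of -0.28 turned to 0.18 without Cre_negative library 3.

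**Figure D4:**
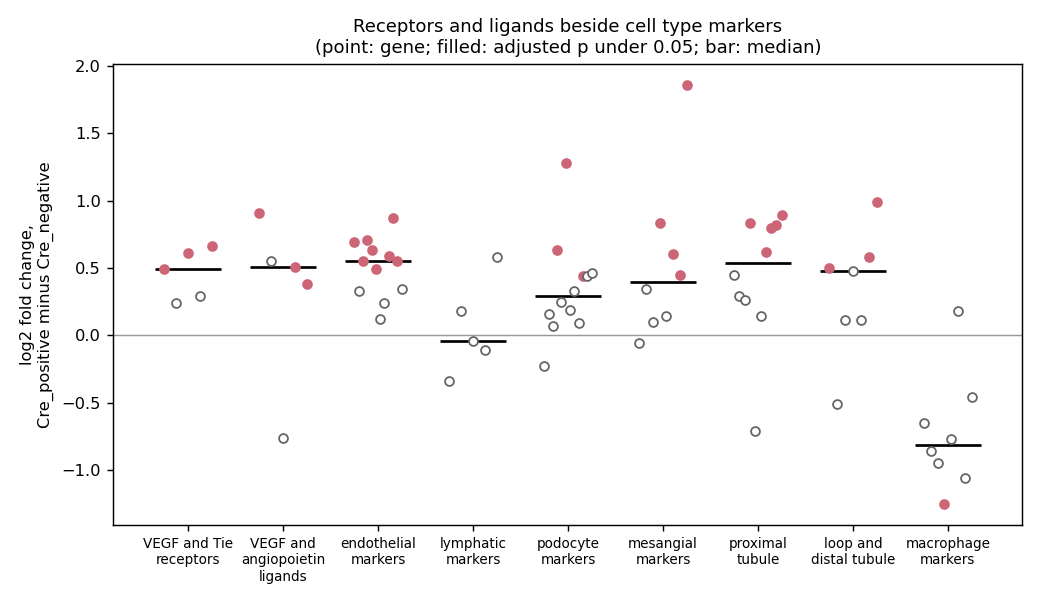
Log2 fold change (Cre_positive minus Cre_negative) of each VEGF and Tie receptor, each ligand and each marker of 7 cell types; filled points passed an adjusted p of 0.05, and bars are medians. The endothelial markers (median 0.55) lie at the height of the receptors, as do those of the proximal tubule (0.53) and of the loop and distal tubule (0.48). The macrophage markers have a median of -0.82, with 1 of 8 above 0.

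Markers of cells that make the ligands moved as well. Against the 3.73% of all genes that passed as higher, 3 of 12 podocyte markers rose and 9 did not pass (median log2 fold change 0.29), with a summed level of 652 to 731 CPM in Cre_negative and 874 to 972 CPM in Cre_positive libraries. Of 10 proximal tubule markers 5 rose and 5 did not pass (median 0.53; 8715 to 10134 against 12659 to 13688 CPM), and of 7 markers of the loop and distal tubule 3 rose and 4 did not pass (median 0.48; 5686 to 7159 against 9327 to 9987 CPM). The log2 fold change was above 0 for 9 of the 10 and 6 of the 7. The exceptions were Slc22a6 at -0.71 (edgeR adjusted p = 0.0553) and Cldn16 at -0.51 (edgeR adjusted p = 0.112). Umod was the largest part of the loop and distal sum, and its mean went from 2517.5 (Cre_negative) to 4984.4 CPM (Cre_positive). Slc12a3 and Calb1 also rose, by 0.58 and 0.50 on the log2 scale. Slc12a1 and Kcnj1 each stood at 0.11 and Pvalb at 0.48, and none of them passed. The summed level is therefore weighted to Umod and is not a measure of loop and distal tubule cells. Vegfa minus the podocyte marker mean differed by 0.17 on the log2 scale (exact permutation p = 0.3), or 0.40 against the markers' median (exact p = 0.1). Against the proximal tubule mean it differed by 0.07 (exact p = 0.5), or 0.30 against that list's median (exact p = 0.1), and against the loop and distal tubule mean by 0.13 (exact p = 0.4), or 0.017 against its median (exact p = 0.7). The part of these cells in the Vegfa rise was not tested.

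Relative to the podocyte markers, Angpt1 stood higher in each Cre_positive library than in any Cre_negative one. Its log2 CPM minus the podocyte mean was -1.24, -1.29 and -1.77 in Cre_negative and -0.57, -1.18 and -0.85 in Cre_positive libraries, a difference of 0.57 (exact permutation p = 0.1, adjusted 0.367). Of 8 mesangial and pericyte markers 4 rose and 4 did not pass (median 0.39), and summed to 267 to 292 CPM in Cre_negative and 364 to 380 CPM in Cre_positive libraries. Against their mean, Angpt1 differed by 0.37 with overlapping libraries (exact p = 0.3). Of 8 macrophage markers 1, C1qc, fell (3.82% of all genes passed as lower) and 7 did not pass (median -0.82). Their sums overlapped, at 169 to 310 CPM in Cre_negative and 172 to 184 CPM in Cre_positive libraries.

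Other ligands, co-receptors and modulators of these pathways were read from a list of 10 genes, of which 2 rose and 8 did not pass (median log2 fold change 0.33, where 7.55% of all genes passed in either direction). Ptprb encodes VE-PTP, the endothelial phosphatase that restrains TEK. It went from 61.4 ± 9.60 to 90.0 ± 0.747 CPM (SD, n = 3; log2 fold change 0.55, SE 0.109, edgeR adjusted p = 0.0199). Svep1, a matrix protein that binds TIE1, went from 33.7 ± 4.05 to 50.0 ± 3.12 CPM (0.57, SE 0.103, adjusted p = 0.0139). Both calls were lost without Cre_positive library 2 (adjusted p = 0.0736 and 0.0628) or 3 (0.0839 and 0.0716), and Ptprb also without library 1 (0.0710). Vegfd, a ligand of FLT4, stood at 0.47 (adjusted p = 0.0789; 0.0229 with DESeq2) and the co-receptor gene Nrp2 at 0.24 (adjusted p = 0.180), and neither passed.

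In the list of 12 receptor-proximal signalling genes, 2 rose and 10 did not pass (median 0.00), where 3.73% of all genes passed as higher. Pik3r1, a regulatory subunit of phosphoinositide 3-kinase, went from 68.8 ± 7.43 to 103.6 ± 1.69 CPM (log2 fold change 0.59, SE 0.0856, edgeR adjusted p = 0.00584). Foxo1, a transcription factor that AKT restrains downstream of TEK, stood at 0.36 (SE 0.0778, adjusted p = 0.0281). The Foxo1 call was lost without Cre_negative library 1 (0.0642) or 2 (0.0802) and without Cre_positive library 1 (0.0938), 2 (0.0766) or 3 (0.126). Rasip1, an endothelial junction regulator, stood at 0.43 and did not pass (adjusted p = 0.0583; 0.0154 with DESeq2). The kinase gene Src stood at -0.26 (adjusted p = 0.0965).

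Of 12 genes known to respond to VEGF or to flow in endothelium, 3 rose, 1 fell and 8 did not pass (median 0.35), beside 3.73% of all genes that passed as higher and 3.82% as lower. Apln, which encodes the tip cell peptide apelin, went from 8.61 ± 0.717 to 18.2 ± 1.01 CPM (SD, n = 3), with Cre_positive libraries between 17.3 and 19.3. The groups were far apart, a log2 fold change of 1.08 (SE 0.119, edgeR adjusted p = 0.00182), and the call held in all 14 other settings. The VEGF-induced proteoglycan gene Esm1 rose by 0.85 (SE 0.176, adjusted p = 0.0231) and the flow-induced factor Klf2 by 0.88 (SE 0.174, adjusted p = 0.0229). Rcan1, a calcineurin inhibitor that VEGF induces in endothelium, went the other way, though bulk libraries do not show which cells its RNA came from. It had 134, 256 and 168 CPM in Cre_negative and 69.0, 67.9 and 80.1 CPM in Cre_positive libraries (log2 fold change -1.36, SE 0.233, adjusted p = 0.0207). Without any 1 of the Cre_positive libraries the calls of Esm1, Klf2 and Rcan1 were lost, with adjusted p of 0.0595, 0.0872 and 0.0838 without library 2, 0.0864, 0.0762 and 0.0808 without library 1, and 0.0691, 0.0829 and 0.0669 without library 3. With any 1 library of either genotype left out, their log2 fold changes were 0.70 to 0.94, 0.69 to 1.02 and -1.55 to -1.07.

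Hypoxia is the classic inducer of Vegfa. In a list of 12 genes of the hypoxia response, 2 rose, 1 fell and 9 did not pass (median 0.07), where 3.73% of all genes passed as higher and 3.82% as lower. Epas1, which encodes HIF-2 alpha and is abundant in endothelium, went from 130.2 ± 8.88 to 183.0 ± 14.4 CPM (log2 fold change 0.49, SE 0.0845, edgeR adjusted p = 0.0118). Ndrg1 also stood at 0.49 (SE 0.125, adjusted p = 0.0485). Egln3, a prolyl hydroxylase that hypoxia induces, had 20.8, 23.8 and 20.2 CPM in Cre_negative and 9.28, 11.3 and 10.9 CPM in Cre_positive libraries. Its Cre_positive values were all far below the Cre_negative ones (log2 fold change -1.04, SE 0.123, adjusted p = 0.00230), and the call held in all 14 other settings. Epas1 lost its call without Cre_positive library 2 (0.0593) or 3 (0.0669). The Ndrg1 call was lost in 7 settings: with robust=FALSE (0.0509), with the replicate block (0.0567), without Cre_negative library 1 (0.0878) or 2 (0.112) and without Cre_positive library 1 (0.147), 2 (0.160) or 3 (0.134). The hydroxylase gene Egln1 stood at 0.28 and did not pass (adjusted p = 0.0644; 0.0289 with DESeq2).

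The genes whose log2 CPM followed that of a member most closely over the 6 libraries were listed among 10607 genes. For Vegfa these were Plekhd1, Notch4, Malrd1 and Tln2 (Pearson r 0.997 to 0.999). For Kdr they were Hsd3b2, Mapk8ip1, Rbm19 and Epb41l2 (r 0.991 to 1.00), and for Angpt1 Rnf152, Smad5, Heph and Fam210b (r 0.981 to 0.993). The 6 points fall into the 2 genotypes, and 257 genes had an r over 0.95 with Vegfa, 142 with Kdr and 44 with Angpt1, so these names only describe the nearest patterns.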

How the data were processed

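Per the submitters' processing notes, fastp, HISAT2, StringTie, edgeR and build GRCm39 were used; the sources used here do not give versions, order, annotation or strand setting. Poly(A) RNA was made into dUTP-marked libraries and read in pairs, per the labels' protocols. The authors deposited whole-number read counts per Ensembl gene, with 53571438 to 58807042 counts per library. Symbols matched 51880 of 57132 rows.

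Counts were fitted with edgeR 4.0.16 (R 4.3.3): filterByExpr (at least 10 counts), TMM, the quasi-likelihood test with robust=TRUE, and Benjamini-Hochberg adjustment over 19927 genes at 0.05. On simulated data the fit called 34.4% of 64 genes changed 1.5-fold, 47% of 66 changed 2-fold and 89.4% of 66 changed 4-fold. Of its calls there, 11.1% were genes left unchanged. A gene that did not pass can therefore still differ, and a call can be false. Fewer genes were changed in the simulation than the 1505 that passed here, so its rates need not hold for the real fit. Log2 CPM used a prior count of 2. Marker-relative values and ratios were tested with exact permutation over samples. Exon lengths came from GENCODE M21. Intervals cover 95%.

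The members, lists and tests were chosen with earlier results of these data known. Named genes were all 10 members, the 4 smallest p-values of each pathway list, and the 4 genes most correlated with Vegfa, Kdr and Angpt1 (average log2 CPM of at least 3). Other settings were DESeq2 1.42.0, its size factors, upper-quartile factors, limma 3.58.1 voom, robust=FALSE, other filters, a prior count of 0.5, the markers' median, a replicate block and each library left out. Same-numbered libraries had correlations of deviations from their group means of 0.0547, 0.0551 and 0.0173, and the labels do not pair them.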

Additional observations from a re-analysis of the deposited data

How the results depend on the processing

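Of 139 values of the 10 genes under other settings, 124 stayed on their side of the threshold, 15 lost their call and none changed direction. The 6 rises were again 6 in number with DESeq2's size factors, upper-quartile factors, DESeq2, no filter on low counts, at least 1 CPM in 3 libraries and the replicate block, and 5 with limma voom and robust=FALSE. Leaving out 1 library gave 2 to 5. Over all genes, DESeq2 called 1267 higher and 1430 lower, against 743 and 762 in edgeR; leaving out 1 library gave 204 to 987 higher and 258 to 1052 lower. With the replicate block 737 were higher and 804 lower, and of the 10 genes and the 16 named pathway genes, Ndrg1 was the one whose call changed. Every library correlated best with its own number in the other genotype, but only at 0.0551 or less. Cre_negative library 3 had 0.0173 with its own number and 0.0170 with Cre_positive library 2. This is at most a weak hint from the data and not the design. In an exact sign-flip test over same-numbered libraries, whose smallest p is 0.25, the difference in the Tek to Tie1 ratio was -0.37 (p = 0.25).

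Differences near 0 changed sign when 1 library was left out: Vegfa to Flt1 ranged from -0.00492 to 0.0741, Angpt2 to Angpt1 from -0.781 to 0.179, and against the endothelial markers Kdr from -0.00225 to 0.197, Flt1 from -0.0805 to 0.0291 and Angpt2 from -0.194 to 0.371. Pgf had the fewest reads, with 10 to 66 counts per library, and every other member had 574 counts or more.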
